A study of Mus musculus with 42 samples.

Results

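The effect of losing *Fmr1* was examined as 1 contrast over 4 systems at once, namely cultures and primary tissue of hippocampus and of cortex. The comparison used the 10 mouse IDs that had an array in every system, 5 *Fmr1*-KO (2037, 2038, 2221, 2620 and 4236) and 5 WT (2236, 2643, 2644, 3569 and NT), which together held 40 of the 42 arrays of the series. Each probe was centred within a system, the 4 arrays of a mouse ID were averaged, and the 5 KO means were set against the 5 WT means. KO mouse ID 4237 and WT mouse ID 3104 had been arrayed from primary hippocampus only, so these 2 arrays were left out.

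KO animals carried the *Fmr1*-KO allele and WT animals did not, and both were C57BL/6 congenic embryos of 17 to 18 days post conception with no treatment. Tissue and cells had been pooled from littermates, so a mouse ID stands for a pool of embryos rather than 1 animal, and pools may differ in sex and in dissection. Cultures came from the same stage and were kept for 14 days in vitro. How the KO allele interrupts the gene, and whether each probe lies inside or outside the altered part, was not given in the sources used here.

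FMRP, the product of *Fmr1*, is an RNA-binding protein that travels with ribosomes in neurons and restrains the translation of many synaptic mRNAs. Its loss causes fragile X syndrome in people, and the KO mouse is the standard animal model. FMRP acts mainly on protein synthesis and stability of transcripts, and it is best known for its place downstream of group I metabotropic glutamate receptors, which signal through the RAS to ERK and mTOR cascades.

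Array quality gave little to separate the genotypes. The difference between 3′ and 5′ probes of *Gapdh*, a measure of RNA integrity, averaged 0.107 ± 0.039 log2 in KO and 0.085 ± 0.045 in WT (SD, n = 5 each; exact permutation p = 0.421, two-sided). That of *Actb* averaged 0.606 ± 0.038 in KO and 0.611 ± 0.053 in WT (SD, n = 5 each; exact permutation p = 0.897, two-sided). The array median was 5.474 ± 0.005 in KO and 5.485 ± 0.004 in WT (SD, n = 5 each; exact permutation p = 0.0159, adjusted over 4 measures 0.0635), a difference of -0.01 log2 whose part in the results below was measured by centring every array on its median.

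Over all 4 systems, *Fmr1* was 1.93-fold lower in KO on its leading probe, and very few other transcripts met a threshold adjusted over the whole array. Of 45037 probes, 3 (0.00666%) passed an adjusted p of 0.05: a probe of *Fmr1*, 1 unannotated probe, both lower in KO, and a probe of *Dffa*, higher in KO. The protein made from *Dffa* holds in check the nuclease that cuts chromatin in apoptosis. At an unadjusted p of 0.05, 1758 probes (3.90%) were called, fewer than the 2252 that make up 5% of the array. By gene, taking the probe with the smallest p, 1322 of 18193 genes (7.27%) were called, 825 higher in KO (4.53%) and 497 lower (2.73%). Most of these differences were small, with a median size of 0.12 log2, and 6 genes exceeded 0.5 log2. With arrays centred on their median, 1194 genes were higher and 334 lower, so that 78.1% of the calls were on the higher side instead of 62.4%.

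The RefSeq start regions of the 2 annotated genes past the adjusted threshold are shown to place them in the genome, each 300 bases long and mostly upstream of the annotated start (GRCm38.p6). The window of *Fmr1* lies at chrX:68678291-68678590 on the plus strand and that of *Dffa* at chr4:149103892-149104191 on the plus strand. In *Fmr1* the capitals mark GCATGCGC, the core of the site bound by NRF1, and CACGTG, the E-box bound by USF proteins. In *Dffa* they mark ACTACANNT, the first part of the element recognised by ZNF143, which occurs 3 times in the window.
Fmr1: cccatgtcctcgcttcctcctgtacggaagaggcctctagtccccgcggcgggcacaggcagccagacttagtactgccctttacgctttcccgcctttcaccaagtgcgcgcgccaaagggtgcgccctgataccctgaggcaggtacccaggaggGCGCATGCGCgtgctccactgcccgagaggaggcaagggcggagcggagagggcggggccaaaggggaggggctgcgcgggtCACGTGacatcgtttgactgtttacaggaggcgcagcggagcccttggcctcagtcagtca
Dffa: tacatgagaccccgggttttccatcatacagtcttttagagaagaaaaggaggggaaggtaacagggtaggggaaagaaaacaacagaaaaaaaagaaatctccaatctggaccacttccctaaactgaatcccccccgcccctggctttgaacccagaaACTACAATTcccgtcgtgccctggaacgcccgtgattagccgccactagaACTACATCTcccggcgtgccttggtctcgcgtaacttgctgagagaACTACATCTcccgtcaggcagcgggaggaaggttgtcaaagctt
Searched on both strands, GCATGCGC was in 2.71% of 32851 mouse start windows of this length, CACGTG in 7.15% and ACTACANNT in 4.16%. In *Fmr1* GCATGCGC matched once on each strand at overlapping positions, which the first run of capitals joins, and no motif overlapped another motif. A match is only a description of the letters.

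*Fmr1* was measured by 3 probes. On 1423369_at the level was 8.46, 8.41, 8.60, 8.54 and 8.45 log2 in KO mouse IDs 2037, 2038, 2221, 2620 and 4236, against 9.50, 9.31, 9.57, 9.38 and 9.44 in WT mouse IDs 2236, 2643, 2644, 3569 and NT. The lowest WT pool lay far above the highest KO pool. The KO mean was 8.49 ± 0.08 and the WT mean 9.44 ± 0.10 (SD, n = 5 each), a log2 difference of -0.95 (standard error 0.06, adjusted p = 1.34e-04), or 1.93-fold. The KO signal on this probe was still well above 5.18, the level below which 95% of probes of genes silent in brain fell.

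The other 2 *Fmr1* probes were lower by less. Probe 1426086_a_at stood at 4.89 ± 0.12 in KO, below that background level, and at 5.54 ± 0.20 in WT (SD, n = 5 each; log2 difference -0.65, adjusted p = 0.206). Probe 1452550_a_at stood at 6.05 ± 0.05 in KO and 6.31 ± 0.18 in WT (SD, n = 5 each; log2 difference -0.26, unadjusted p = 0.0051, adjusted p = 0.9995), and its groups overlapped. The size of the loss thus depended on the probe read.

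The *Fmr1* difference was present in every system. On 1423369_at it was -0.94 and -0.90 in cultures of hippocampus and cortex and -0.95 and -0.99 in the primary tissues in that order. The effect in cultures minus that in tissues was 0.05 (standard error 0.10, unadjusted p = 0.636), and that in hippocampus minus that in cortex was -0.00 (standard error 0.09, unadjusted p = 0.988). Arrays of the 2 genotypes were wholly apart within each of the 4 systems on 2 probes of the array, 1423369_at and 1426086_a_at, both of *Fmr1*.

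**Figure D1:**
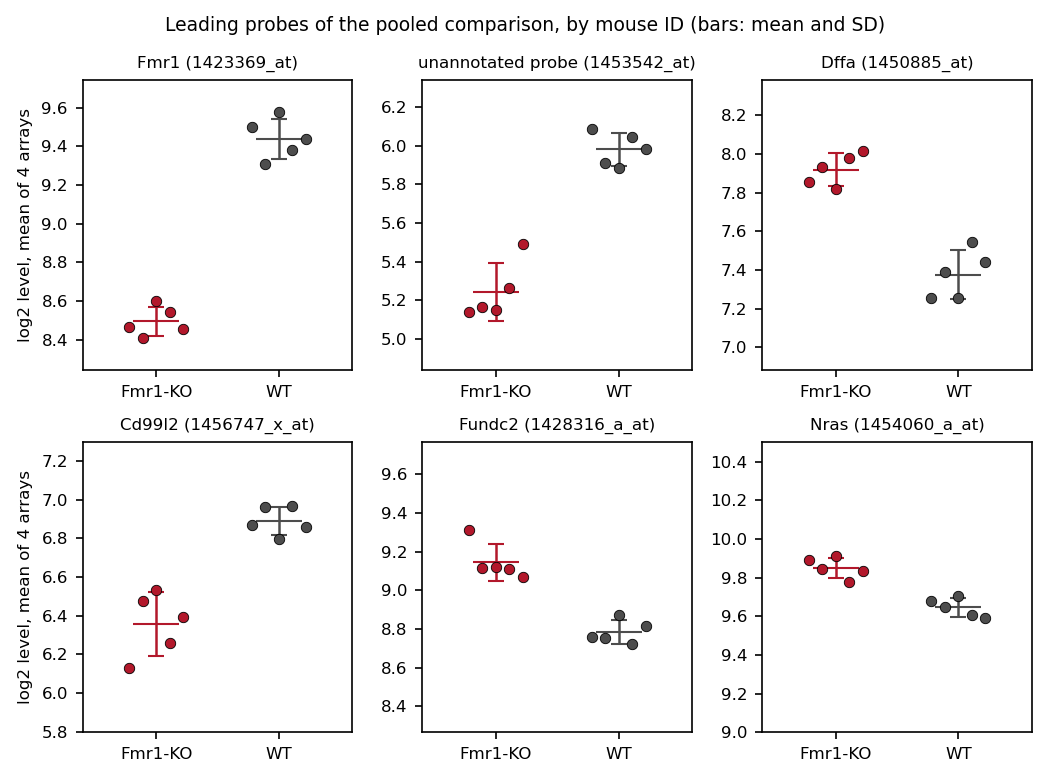
Level of 6 leading probes (log2, mean of the 4 arrays of a mouse ID; each panel spans 1.5 log2). Each point is 1 mouse ID, *Fmr1*-KO on the left and WT on the right, and the bars give the mean and SD (n = 5 each). The 2 genotypes did not overlap on any of these probes, which is largely fixed by their choice by p on these same means. Over the whole array 328 probes (0.728%) showed no overlap.

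The second probe by p, 1453542_at, has no gene in the platform annotation. It read 5.14, 5.16, 5.15, 5.27 and 5.49 in the KO mouse IDs, against 6.09, 5.91, 5.89, 6.04 and 5.98 in the WT mouse IDs in the order above. KO pools thus sat at the background level or slightly above it, and WT pools all sat clearly above it. The log2 difference was -0.74 (standard error 0.07, adjusted p = 0.0103). It was -0.80 in cultured hippocampus and -0.72 in cultured cortex, and -0.61 and -0.81 in primary tissue of the same regions.

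*Dffa* was the only named gene other than *Fmr1* past the adjusted threshold. Probe 1450885_at read 7.85, 7.93, 7.82, 7.98 and 8.01 in the KO mouse IDs, against 7.25, 7.39, 7.25, 7.55 and 7.44 in the WT mouse IDs. Every KO pool was higher than every WT pool, by 0.54 log2 on average (standard error 0.06, adjusted p = 0.0479), or 1.46-fold. The second *Dffa* probe, 1457564_at, read 4.11 ± 0.05 in KO and 4.10 ± 0.05 in WT (SD, n = 5 each), which is below background and carries no information on the gene.

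For *Dffa* the difference was larger in hippocampus than in cortex, at 0.46 against 0.36 in culture and 0.85 against 0.50 in primary tissue, and the arrays of the genotypes were wholly apart in 3 of the 4 systems. Cultures minus tissues gave -0.27 (standard error 0.11, unadjusted p = 0.0295, adjusted p = 0.979) and hippocampus minus cortex gave 0.23 (standard error 0.08, unadjusted p = 0.0158, adjusted p = 0.993). The adjusted p of *Dffa* lies close to the threshold: it passed in 1 of the 10 fits that left out a single mouse ID, and ranged over them between 0.0276 and 0.262, while the difference itself stayed between 0.51 and 0.59. Without primary hippocampus the difference was 0.44 and the adjusted p 0.51.

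**Figure D2:**
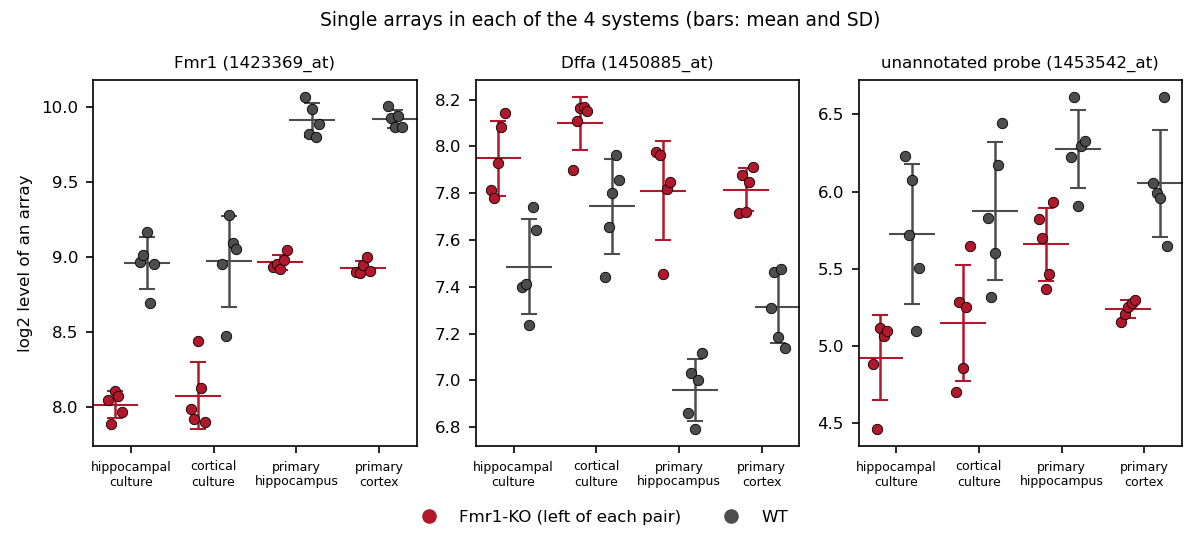
Level of 3 probes on single arrays (log2) in each of the 4 systems, *Fmr1*-KO left of WT in each pair, with mean and SD (n = 5 arrays each). The *Fmr1* arrays of the genotypes were apart in 4 systems, whereas the unannotated probe showed overlap in 3 of them.

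The X chromosome around *Fmr1* held several of the leading genes. Of 99 measured genes within 10 Mb of *Fmr1*, itself included, 14 were called at an unadjusted p of 0.05 (14.1%), 7 higher and 7 lower in KO, beside 28 of 518 genes on the rest of the X (5.41%) and 7.27% of all genes. By probe it was 23 of 177 (13.0%) near *Fmr1* and 30 of 950 (3.16%) elsewhere on the X; the difference between these shares was not tested. Without *Fmr1* it was 13 of 98 genes (13.3%) and 20 of 174 probes (11.5%). Leaving out KO 4236 took the 14 genes to 25 (25.3%), 11 higher and 14 lower, when 12.1% of all genes were called. The median log2 difference of the nearby genes was 0.00, since members moved both ways. With the arrays read as 40 samples and the mouse ID as a replicate block, 5 genes passed the adjusted threshold instead of 2. *Cd99l2*, *Fundc2* and *Rab39b* were the ones added, and all 3 lie in this window. That fit used 1 correlation of 0.066 within a mouse ID, although same-ID deviations correlated at 0.377 between tissues and 0.266 between cultures. The same 5 genes passed with the 40 arrays taken as separate samples. The block fit thus treated the arrays of a pool as nearly separate replicates, and on the 10 means these 3 genes did not pass.

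*Cd99l2*, a membrane protein of the CD99 family, is the 12th protein-coding gene after *Fmr1*. On 1456747_x_at it read 6.13, 6.48, 6.53, 6.26 and 6.39 in the KO mouse IDs, and between 6.80 and 6.97 in the WT mouse IDs. The groups did not overlap, with a log2 difference of -0.53 (standard error 0.07, adjusted p = 0.159). Probes 1456746_a_at (-0.67) and 1423966_at (-0.32) were lower too, but 1423965_at was higher by 0.26 (unadjusted p = 0.0021), so probes of 1 gene disagreed in direction. In the 4 systems the 1456747_x_at difference lay between -0.59 and -0.48.

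*Fundc2*, which encodes a mitochondrial outer membrane protein, is the 98th gene after *Fmr1* and showed the same disagreement. Probe 1428316_a_at read 9.31, 9.11, 9.12, 9.11 and 9.07 in the KO mouse IDs, against 8.76, 8.75, 8.87, 8.72 and 8.82 in the WT mouse IDs, a log2 difference of 0.36 (standard error 0.05, adjusted p = 0.159) with no overlap. Probe 1460434_at was lower (-0.38, unadjusted p = 0.0165) as was 1428317_at (-0.23, unadjusted p = 0.0367), which stayed below background. A direction for the whole gene could therefore not be given.

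**Figure D3:**
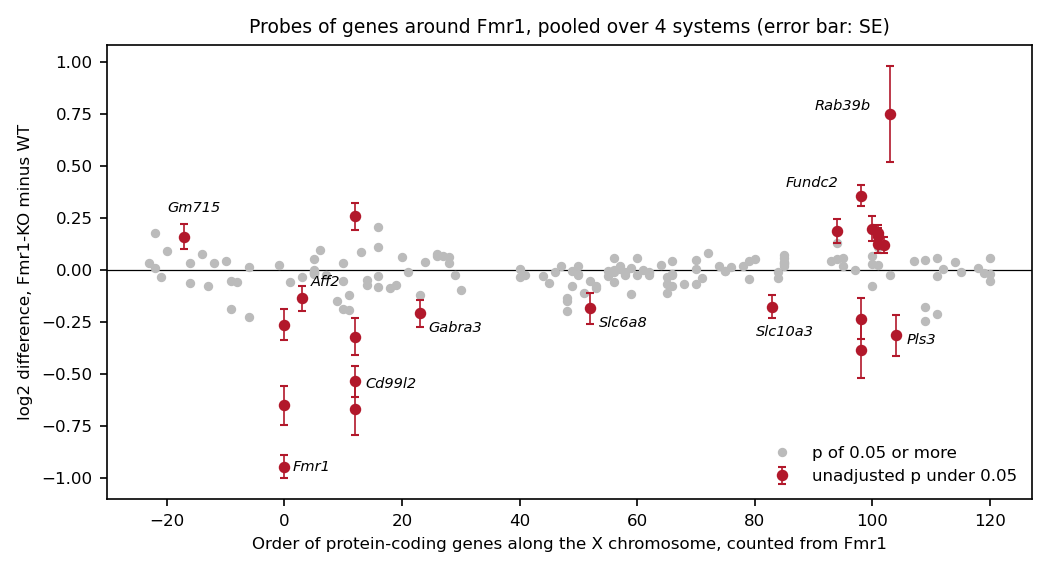
Log2 difference, *Fmr1*-KO minus WT, of probes within 10 Mb of *Fmr1*, by the order of protein-coding genes counted from *Fmr1* (0). Probes of genes without a place in that order are not drawn. Red points with standard errors have an unadjusted p under 0.05; they gather at *Fmr1*, at *Cd99l2* and between the 94th and 104th genes, while most genes between lie near 0.

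Genes called near the far end of the window were neighbours. *Fundc2*, *Mtcp1*, *Brcc3*, *Vbp1*, *Rab39b* and *Pls3* are the measured genes from the 98th to the 104th place, and each had at least 1 called probe. *Mtcp1*, a proto-oncogene of the TCL1 family, was higher by 0.20 on 1 of its 4 probes, 1449897_a_at (standard error 0.06, unadjusted p = 0.0066). *Brcc3*, a lysine-63 deubiquitinase of the BRCA1 complex, was higher on 3 of 5 probes, by 0.18, 0.17 and 0.13, and 2 of these had no overlap between genotypes, although the probe at 0.17 stayed below background in both. *Vbp1*, a prefoldin subunit that helps to fold actin and tubulin, was higher by 0.12 (standard error 0.04, unadjusted p = 0.0096). *Brcc3* and *Mtcp1* start within overlapping windows on opposite strands, chrX:75416378-75416677 on the plus strand and chrX:75416535-75416834 on the minus strand.

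*Rab39b*, a small GTPase of vesicle trafficking linked in people to intellectual disability, differed most among these genes but not in all KO pools. Probe 1453246_at read 8.35, 8.13, 7.25, 8.40 and 8.52 in KO mouse IDs 2037, 2038, 2221, 2620 and 4236, against 7.60, 6.91, 7.21, 7.71 and 7.45 in the WT mouse IDs. KO 2221 lay among the WT pools, and the other 4 KO pools lay above all of them. This held in each system, where KO 2221 read 7.61 and 7.37 in the hippocampal and cortical cultures and 6.74 and 7.29 in the corresponding primary tissues, and the other KO arrays read 8.26 or more in the cultures and 7.64 or more in the tissues. The log2 difference was 0.75 over 5 KO pools (standard error 0.23, adjusted p = 0.9995), and 0.97 without KO 2221 (standard error 0.15, adjusted p = 0.612). The second probe, 1435014_at, showed -0.02.

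In the pooled means the same KO pool stood apart on 2 neighbouring genes. On *Fundc2* probe 1460434_at KO 2221 read 7.12, the other KO pools 6.32 to 6.68 and the WT pools 6.82 to 7.13, and leaving out KO 2221 took the difference to -0.51 (standard error 0.08, adjusted p = 0.657). On *Pls3*, an actin-bundling plastin, KO 2221 read 9.29, the other KO pools 8.87 to 9.04 and the WT pools 9.07 to 9.56, with -0.31 over all pools (standard error 0.10, unadjusted p = 0.0093) and -0.38 without KO 2221. On *Fundc2* probe 1428316_a_at, *Vbp1* and the called *Brcc3* probes, KO 2221 lay within the range of the other KO pools or above it, and on *Mtcp1* it was the lowest KO pool, at 8.43. Its *Fmr1* level, 8.60, was that of a KO. These values were chosen after they had been seen.

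**Figure D4:**
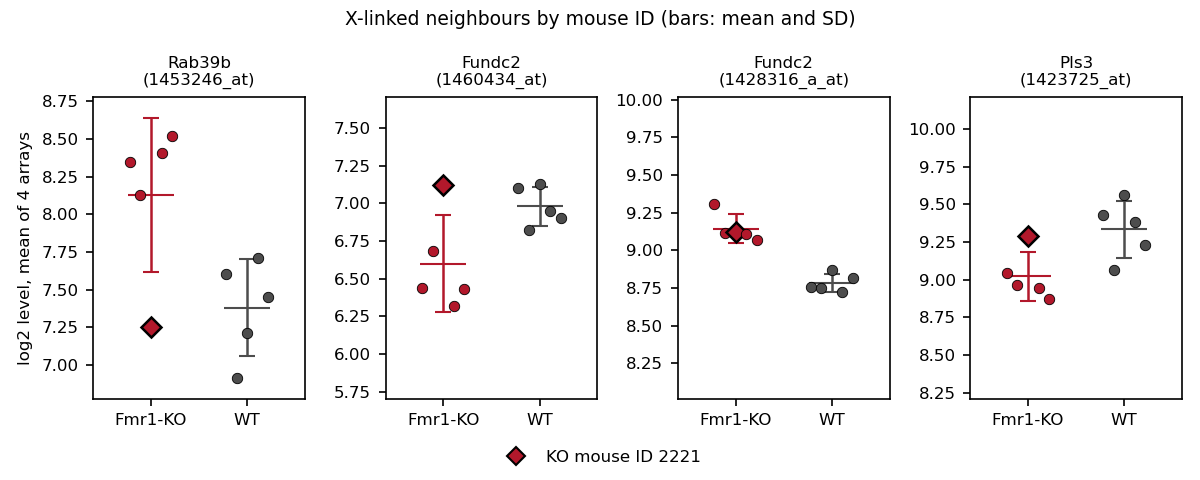
Level of 4 probes of X-linked neighbours (log2, mean of the 4 arrays of a mouse ID, each panel spanning 2 log2), *Fmr1*-KO left of WT, with mean and SD (n = 5 each). The diamond is KO mouse ID 2221, which sits among the WT pools for *Rab39b*, *Pls3* and *Fundc2* probe 1460434_at and among the KO pools for *Fundc2* probe 1428316_a_at.

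Other genes near *Fmr1* at an unadjusted p of 0.05 were *Aff2* (-0.13), *Gabra3* (-0.21), *Slc6a8* (-0.18), *Slc10a3* (-0.17), *Dkc1* (0.19) and *Gm715* (0.16). *Aff2* encodes a transcriptional elongation factor, *Gabra3* a GABA-A receptor subunit, *Slc6a8* the creatine transporter and *Dkc1* the dyskerin of small nucleolar particles. Hippocampal and cortical culture gave 0.25 and 0.63 for *Dkc1*, and primary hippocampus and primary cortex -0.15 and 0.03. For *Gm715* the values in that order were 0.41, 0.35, -0.09 and -0.03. *Slc10a3* and the called *Gabra3* probe were lower in every system. *Aff2* was lower outside hippocampal culture and *Slc6a8* outside primary cortex. *Gabra3* was called only on 1421263_at, a probe that stayed below background. Its other probe, above background, read 6.85 in KO and 6.97 in WT and was not called (log2 difference -0.12, unadjusted p = 0.235). *Ids*, between *Fmr1* and *Cd99l2*, was measured by 6 probes whose differences lay between -0.02 and 0.06.

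Of the leading 30 genes by p with a signal above background, 15 on each side, 27 lay away from *Fmr1*, the others being *Fmr1*, *Cd99l2* and *Fundc2*. The 27 ranged between -0.54 and 0.54 log2, and genotypes did not overlap for 22 of them. As the 27 were chosen by p on these same means, that count is largely fixed by the choice. Over the whole array genotypes did not overlap for 328 probes (0.728%), 187 higher and 141 lower. Full separation of 5 from 5 in either direction has a chance of 0.00794 for a probe without a difference, so this share is not above it. In 25 of the 27 the mean difference was larger in the cultures than in the tissues (92.6%), near the 87.0% of all 1322 genes called at the unadjusted p and beside 69.8% of all genes. The sign was the same in all 4 systems for 19 of the 27, which were 13 of 14 higher and 6 of 13 lower genes. It was so for 797 of the 1322 called genes and 4219 of all 18193 genes. The spread between replicate arrays was larger in the cultures as well, with a median SD per probe of 0.15 and 0.17 log2 in hippocampal and cortical culture and of 0.13 and 0.12 in primary hippocampus and primary cortex.

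*Nras*, a small GTPase that switches on the ERK cascade, read 9.89, 9.84, 9.91, 9.78 and 9.83 in the KO mouse IDs, against 9.68, 9.65, 9.70, 9.61 and 9.59 in the WT mouse IDs. Every KO pool was above every WT pool, yet the difference of 0.20 (standard error 0.04) had an adjusted p of 0.917. It was 0.44 and 0.26 in hippocampal and cortical culture and 0.03 and 0.08 in primary hippocampus and primary cortex; cultures minus tissues was 0.29 (standard error 0.07, unadjusted p = 0.0022, adjusted p = 0.979). Of 2 further *Nras* probes, 1 was higher by 0.17 (unadjusted p = 0.0188) and the other differed by 0.02.

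The remaining higher genes included *Wtap* (0.17), a subunit of the mRNA adenosine methylation complex, *Crk* (0.17), an adaptor of growth factor receptors, *Idh1* (0.17), the cytosolic isocitrate dehydrogenase, *Fabp5* (0.17), a fatty acid carrier of neural cells, and *C1d* (0.20) and *Utp23* (0.19), factors of RNA processing. *Nrbf2* (0.20), a subunit of the autophagy lipid kinase, *Nsg2* (0.23), *Prr18* (0.19), *Ssx2ip* (0.17) and *Lrrcc1* (0.18), a centrosomal protein, completed the group. *Idh1* was higher on both of its probes, by 0.17 and 0.18. In single systems these 2 probes lay between 0.23 and 0.45 in the cultures and between -0.05 and 0.03 in the tissues. Cultures and tissues gave 0.32 and 0.03 for *Wtap*, 0.35 and 0.04 for *C1d*, and 0.28 and 0.05 for *Fabp5*. For *Nsg2* they gave 0.31 and 0.16, and for *Prr18* 0.25 and 0.12. *Crk* was called on 1448248_at only, and its other probes lay between -0.03 and 0.09. Probes of *Casp9*, the initiator caspase of the mitochondrial death pathway, disagreed: 1437537_at was higher by 0.23 (unadjusted p = 0.0013) and 1457816_at lower (-0.09, unadjusted p = 0.0349), both above background.

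Of the lower genes, *Col6a1*, a chain of collagen VI, read 5.26, 5.24, 5.29, 5.39 and 5.31 in the KO mouse IDs and 5.51 to 5.78 in the WT mouse IDs (log2 difference -0.30, standard error 0.05, adjusted p = 0.695). The neuronal pentraxin *Nptx2*, which clusters AMPA receptors at synapses, read 4.73 to 4.91 in KO, below background, and 5.01 to 5.94 in WT. Its difference was -0.92 and -1.12 in hippocampal and cortical culture, against -0.07 in both tissues. The primary hippocampus arrays of KO 4237 and WT 3104, outside the comparison, read 4.92 and 4.87, also below background. A tissue difference near 0 on so dim a probe cannot show that the effect is absent there. For *Adcyap1*, the neuropeptide PACAP, the culture differences were -0.86 and -0.65 beside tissue differences of -0.00 and 0.11. *Chgb* (-0.20), a granin of dense-core vesicles, and the atypical cadherin *Fat3* (-0.21) were lower in both cultures, by up to -0.66, and between -0.06 and 0.05 in the tissues; cultures minus tissues was -0.96 for *Nptx2* (unadjusted p = 0.0059), -0.81 for *Adcyap1* (unadjusted p = 6.86e-04) and -0.49 for *Fat3* (unadjusted p = 0.0159), each at an adjusted p of 0.979. Other lower genes were *Slc39a14* (-0.20), *Atmin* (-0.18), *Pld3* (-0.17), the lysosomal glucosidase *Gaa* (-0.19), *Tns1* (-0.21), *Susd5* (-0.14), *Ccdc102a* (-0.12) and *Eif2ak2* (-0.21), the RNA-activated kinase PKR.

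Signalling pathways linked to FMRP showed single genes on either side. In the RAS to ERK cascade 4 of 26 measured genes were higher in KO and 2 lower at an unadjusted p of 0.05 (median 0.02), beside 4.53% higher and 2.73% lower of all genes: besides *Nras* and *Crk*, the kinase *Rps6ka5* was higher (0.21) and the exchange factor *Rapgef1* lower (-0.12). In the mTOR pathway 2 of 24 were higher and 3 lower (median 0.02), with *Tsc2*, an inhibitor of the pathway, at -0.14 and *Rictor*, of the second mTOR complex, at 0.12. In the group I glutamate receptor list 2 of 28 were higher, *Eef2k* (0.15), the kinase that inhibits elongation factor 2, and *Homer3* (0.17), and 2 lower, *Prkca* (-0.17) and *Dlgap3* (-0.16) (median -0.03). A gene was counted from its smallest p, and these lists held more probes per gene, 2.92, 2.96 and 2.82 in the order above, beside 1.92 over all genes. By probe 9.21%, 7.04% and 5.06% were called, beside 4.16% of all probes with 1 gene. The median of all genes was 0.01, and the 2 genes past the adjusted threshold were in none of these lists. With systems scaled to equal spread *Nras* and *Eef2k* were among the 22 genes that passed it. That setting divided each probe by an SD estimated from the same arrays and treated it as known. *Fmr1* then had an unadjusted p of 9.03e-171 by limma, beside 2.97e-09 in the main fit. The p-values of that setting are thus too small to be read as support for these genes. Leaving out 1 mouse ID gave 3 to 5 higher and 1 to 3 lower genes in the RAS to ERK list. It gave 1 to 6 higher mTOR genes (1 without KO 2037, 2038 or 2221, 4 without WT 2644, 5 without KO 4236 and 6 without KO 2620). It gave 1 to 6 lower group I receptor genes (1 without KO 2037 or WT NT, 6 without KO 4236). The FMRP paralogs were measured at 0.02 to 0.08 on 4 *Fxr1* probes and -0.09 on *Fxr2*, with no unadjusted p under 0.05.

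In neuronal lists, 3 of 21 genes of immature postmitotic neurons were higher, *Stmn1* (0.14), *Stmn2* (0.10) and *Sox11* (0.20), and 1 lower (median 0.09), where 4.53% of all genes were higher and 2.73% lower. The 3 became 1 without KO 2038 or WT 2644 and 5 without KO 2037 or WT 3569. The list median was 0.27 in hippocampal culture and between -0.00 and 0.05 in the other 3 systems, so that the pooled value came mainly from 1 system. Of 23 mature glutamatergic genes 1 was lower, the AMPA receptor subunit *Gria3* (-0.20), and none higher (median -0.01). Ion channels showed 2 lower of 18, *Kcnma1* (-0.31), the calcium-activated BK channel, and the sodium channel *Scn1a* (-0.21), and between 0 (without KO 2038) and 4 (without KO 4236 or WT 2643) when 1 mouse ID was left out. By probe 9.09% of the immature neuron list and 3.57% of the ion channel list were called, beside 4.16% of all probes with 1 gene. Those lists held 2.62 and 3.11 probes per gene, beside 1.92 over all genes. Cell cycle and radial glia lists, of 39 and 22 genes, held no called gene.

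Genes called in the lists of protein and RNA production were mostly higher, as were called genes over the whole array (4.53% of all genes higher and 2.73% lower). Of 30 cytosolic ribosomal protein genes 6 were higher and none lower (median 0.03), among them *Rpl14* (0.14) and *Rpl22* (0.14), and of 39 splicing factors 6 were higher and 1 lower (median 0.03), led by *Srsf3* (0.19), whose difference was 0.36 in cultures and 0.01 in tissues (cultures minus tissues 0.35, unadjusted p = 0.0047, adjusted p = 0.979). By probe 10.96% of the ribosomal protein list and 6.45% of the splicing list were called, beside 4.16% of all probes with 1 gene. These lists held 2.43 and 3.18 probes per gene, beside 1.92 over all genes. Leaving out 1 mouse ID gave 3 to 7 higher ribosomal protein genes and 2 to 7 higher splicing factors, with 3 and 2 without KO 2221. Without the arrays of hippocampal culture these counts were 2 and 0 for ribosomal proteins and 0 and 0 for splicing factors. Among all genes in that setting 347 were higher and 489 lower, so the excess of higher genes turned round when this system was left out.

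Interferon response genes were on the lower side. Of 27 measured genes 9 were lower in KO and none higher (33.3% called, beside 2.73% of all genes on the lower side; median -0.07). They were *Oasl2*, *Usp18*, *Ifit1*, *Irf9*, *Gbp2*, *Rtp4*, *Oas1a*, *Xaf1* and *Bst2*, with differences between -0.41 and -0.09, and 5 of them, *Oasl2*, *Usp18*, *Ifit1*, *Gbp2* and *Xaf1*, stayed below the background level in both genotypes. *Usp18*, which removes ISG15 from proteins, read 4.30, 4.24, 4.33, 4.26 and 4.18 in the KO mouse IDs, against 5.18, 4.24, 4.37, 4.74 and 4.83 in the WT mouse IDs. The KO pools were alike and 3 WT pools were high. Its difference was -0.92 in primary hippocampus and -0.80 in primary cortex, against 0.09 and -0.03 in the cultures (cultures minus tissues 0.89, unadjusted p = 0.0265, adjusted p = 0.979).

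The interferon count depended on single pools of both genotypes. Leaving out 1 mouse ID at a time gave 2 to 11 lower genes, with 2 without WT NT, 3 without WT 2236 and 4 without KO 2620 or KO 4236. It was also 2 without the arrays of primary cortex or of primary hippocampus, and 3 of 14 when only probes above background were tested. Over these 14 members the mean level lay between 5.83 and 6.01 in KO and between 5.89 and 6.08 in WT pools, which overlapped.

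In 3 of 8 lists of cells other than neurons and their progenitors, at least 3 genes were lower and none higher. Microglia and macrophage markers were lower for 3 of 21 genes, *Csf1r* (-0.19), *Laptm5* (-0.11) and *Cd68* (-0.33), choroid plexus markers for 3 of 16, *Clic6* (-0.34), *Kcne2* (-0.39) and *Kcnj13* (-0.20), and meninges and fibroblast markers for 4 of 22, *Col6a1*, *Mgp* (-0.20), *Col6a2* (-0.14) and *Aldh1a2* (-0.14), beside 2.73% of all genes on the lower side. Most members of these lists did not pass. Of the other 5 lists, astrocyte markers had 2 higher and 1 lower of 19 (median 0.06), oligodendrocyte lineage 1 lower of 17, endothelium 1 lower of 17, pericytes and smooth muscle 1 lower of 13 and erythroid cells none of 11. *Clic6*, *Kcne2*, *Mgp* and *Aldh1a2* stayed below background in both genotypes. Averaged over members above background, microglia markers ranged over 5.59 to 5.70 in KO pools and 5.63 to 5.89 in WT pools, choroid plexus markers over 5.61 to 6.22 and 5.96 to 6.38, and meningeal markers over 6.71 to 7.20 and 6.98 to 7.25, in KO pools and WT pools each time. The choroid plexus genes differed in primary hippocampus, where the list median was -0.39, and little in the other systems (-0.05 to 0.02), and none was called without the arrays of primary hippocampus. No microglia marker was called without KO 2620 or without WT 3569. In bulk samples fewer cells of a type and less RNA per cell cannot be told apart, and the part of these cells in the interferon result was not tested. As pools rather than single embryos are the replicates, every p-value here measures the spread between these pools.

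**Figure D5:**
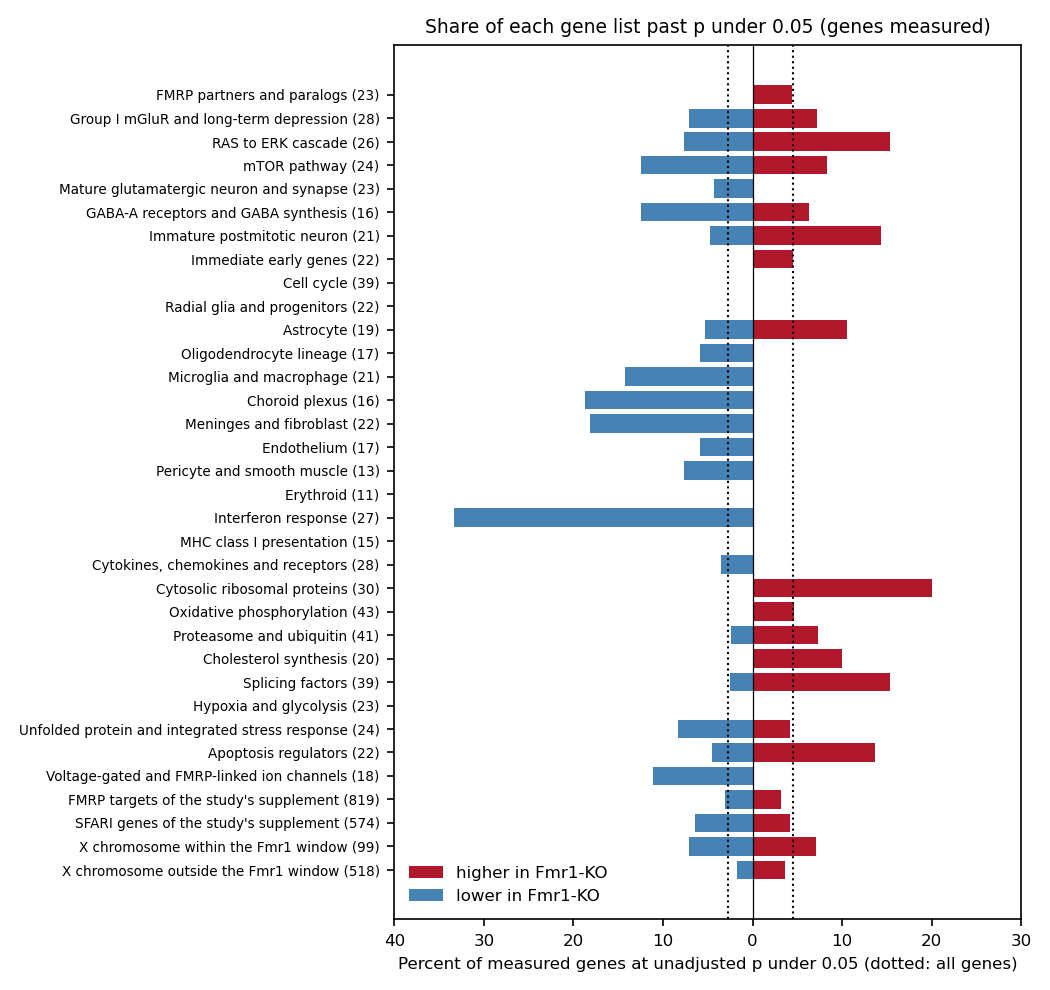
Percent of the measured genes of each list (number in brackets) with an unadjusted p under 0.05 in the pooled comparison, higher in *Fmr1*-KO to the right and lower to the left. Dotted lines mark the same shares over all genes, 4.53% and 2.73%, and the interferon list reaches 33.3% on the lower side. A gene is counted from its probe with the smallest p, and the lists differ in probes per gene.

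Broad lists of the study's supplement had medians near 0 and shares that varied with the mouse IDs used. Of 819 measured FMRP target genes 26 were higher and 25 lower (6.23%, beside 7.27% of all genes; median 0.01), and by probe 2.62% were called beside 4.16% of all probes with 1 gene. Leaving out KO 4236 took the targets to 48 higher and 89 lower (16.7%, when 12.1% of all genes were called), and the other mouse IDs to 18 to 39 higher and 17 to 45 lower. Of 574 autism candidate genes of the SFARI list 24 were higher and 37 lower (10.6%; median 0.00), and by probe 4.78% were called; these genes carried 2.62 probes each beside 1.92 over all genes, and more probes give more chances to a smallest p. Without KO 4236 they were 32 higher and 82 lower (19.9%), and without each of the other mouse IDs 15 to 29 higher and 24 to 59 lower.

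The sex mix of the pools varied within both genotypes. *Xist*, the RNA of the inactive X, read 11.32, 12.24, 11.54, 11.47 and 12.02 on 1436936_s_at in the KO mouse IDs, against 11.43, 12.34, 9.998, 11.80 and 11.62 in the WT mouse IDs. The Y-linked *Eif2s3y* read 7.96, 6.26, 8.02, 8.19 and 6.71 in KO and 7.66, 6.29, 8.53, 7.62 and 8.09 in WT. WT 2644 was lowest for *Xist* and highest for *Eif2s3y*, and KO 2038, KO 4236 and WT 2643 were the reverse. KO minus WT was 0.28 for *Xist* (exact permutation p = 0.619, two-sided, n = 5 each) and -0.21 for *Eif2s3y* (exact permutation p = 0.73, two-sided, n = 5 each), where the smallest p that 5 against 5 allows is 0.00794.

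Whether the KO effect differed with the preparation or the region was tested within mouse IDs. For cultures minus tissues 2091 of 45037 probes (4.64%) had an unadjusted p under 0.05, and for hippocampus minus cortex 1969 probes (4.37%), and by limma none passed the adjusted threshold in either (lowest adjusted p = 0.979 and 0.993). By gene, 1524 and 1447 were called at the unadjusted p, and 2439 and 886 with the 40 arrays fitted with the mouse ID as a replicate block. The smallest p for the preparation belonged to *Ghsr*, the ghrelin receptor, at -0.22 in cultures and 0.13 in tissues, followed by *Urgcp*, *Ccdc85a*, *Msi2*, an RNA-binding protein of neural progenitors, and *Ltk*, a receptor tyrosine kinase, at -0.37 and 0.20. For the region they belonged to *Spsb1*, at -0.27 in hippocampus and 0.27 in cortex, *Maoa*, a monoamine oxidase at 0.27 and -0.10, *Lancl2*, *Ccnf* and *Repin1*.

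The regional test rested on 1 pool to an unusual degree. Leaving out WT 2236 took it to 3113 genes at the unadjusted p and 49 at the adjusted p, whereas leaving out each of the other 9 mouse IDs gave between 1042 and 1504 genes at the unadjusted p. Without WT 2236, 17.1% of all genes were called, and the 5 lists of 10 or more genes with the highest shares were 20 of 39 cell cycle genes (median -0.41 for hippocampus minus cortex), 11 of 21 immature neuron genes (median 0.26), 9 of 15 genes of MHC class I presentation (median -0.23), 10 of 22 meningeal genes (median -0.27) and 10 of 22 radial glia genes (median -0.21). No ribosomal protein gene or microglia marker was called without it.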

How the data were processed

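RNA of 42 samples (100 ng each) had been hybridised to Affymetrix mouse 3′ expression arrays. The authors deposited log2 values made with RMA, per the labels, which corrects background, normalises arrays and summarises each probe set (here a probe); RMA compresses differences of dim probes. Of 45101 probes 64 controls were left out. The platform annotation gave 34945 probes 1 gene, 932 several and 9160 none, and 18193 genes were named. Values were centred within a system and averaged over the 4 arrays of a mouse ID, and 5 KO and 5 WT means were tested with limma 3.58.1 (R 4.3.3; lmFit, eBayes, Benjamini-Hochberg over all 45037 probes). Differences between systems were tested on within-ID contrasts. A gene was read from its probe with the smallest p, and background was the 95th percentile (5.18) of 123 probes of genes silent in brain. Genes named were the 15 higher and 15 lower with the smallest p above background, called genes within 10 Mb of *Fmr1*, and called members of the lists. The members, lists and tests were chosen with earlier results of these data known. Mouse IDs were shared across systems: same-ID deviations correlated at 0.377 between tissues, 0.266 between cultures and 0.02 to 0.05 otherwise, and no ID joined KO to WT. The number of arrays limits precision (median standard error 0.05 log2). Array settings, normalization, weights, left-out IDs and systems were varied as alternatives. Python 3.11.15, pandas 2.3.3, SciPy 1.17.1 and Matplotlib 3.10.9 were used, and fits were tested on simulated data.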

Additional observations from a re-analysis of the deposited data

Results flagged for a closer look

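Single pools stood far from the rest of their genotype in 6 of 88 groups of 5 tested, where chance gives about 1 in 20. *Fundc2* (1428316_a_at) read 9.3094 in KO 2037 and 9.07 to 9.12 in the other KO pools. *C1d* read 6.2490 in KO 4236 and 6.40 to 6.44 in the others. *Eif2ak2* read 5.5790 in KO 2221 and 5.82 to 5.89 in the others. Among WT pools, *Idh1* read 11.2722 in WT 3569 and 11.36 to 11.40 in the others, *Col6a1* read 5.7796 in WT 3569 and 5.51 to 5.58 in the others, and *Gaa* read 8.1159 in WT NT and 8.30 to 8.32 in the others.

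The 2 primary hippocampus arrays outside the comparison, KO 4237 and WT 3104, gave a further difference with no replicate. KO 4237 minus WT 3104 was -0.8425 log2 for *Fmr1*, 0.7388 for *Dffa* and -0.5413 for probe 1453542_at. Of the 41 genes named by p or position, *Fmr1* included, 26 had the sign of the pooled comparison in this pair. The same share over all genes was not computed, so this count has nothing to be read against.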

How the results depend on the processing

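*Fmr1* passed the adjusted threshold under every alternative, at -0.91 to -0.98 log2 (-9.91 SD where systems were scaled to equal spread). The count of 1322 genes at an unadjusted p was 865 (without KO 2038) to 2193 (without KO 4236, of which 1041 were shared) when 1 mouse ID was left out, 836 without hippocampal culture, 710 with probes above background, 826 with the highest-mean probe per gene, 2166 with systems scaled and 2334 with 40 separate arrays. The 2 genes at an adjusted p became 1 to 2 with 1 mouse ID left out, 1 without primary cortex, without primary hippocampus or after quantile normalization, and 22 with systems scaled; *Dffa* was the gene lost. With mouse ID as a replicate block they were 5 over 40 arrays, 5 over 42 arrays and 5 with 40 separate arrays, and the unadjusted counts under the block were 1656 and 1564. For cultures minus tissues, 1524 genes became 861 to 1954 with 1 mouse ID left out (861 without KO 2038), 861 with probes above background and 2439 with the replicate block. For hippocampus minus cortex, 1447 became 1042 to 3113 (3113 without WT 2236), 829 and 886. Of 2347 comparisons over 103 other named results, 1936 kept direction and side of the threshold, 411 kept direction only and 0 reversed. Many of these results were chosen by p on the same means and most alternatives reuse the same arrays, so reversals were unlikely from the start. Direction only was kept by 50 results without hippocampal culture and 36 without cortical culture, and by 3 with trended and robust variance. Counts with systems scaled are not comparable with the others, because the SDs used for scaling came from the same arrays. The causes were not tested. Dim probes limit what these arrays show: 65.4% of genes were above background.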
